A study of Mus musculus with 13 samples.

Results

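The genes described here are 40 cell cycle and DNA replication genes, followed through mouse mammary gland after conditional knockout of Jak1, the kinase that carries signals from many cytokine receptors. They were chosen by name, from a list of genes known to be transcribed in dividing cells, with earlier results of these data known. All 40 had a row in both deposited FPKM tables, which hold 23951 gene symbols each. Of these, 17 belong to DNA replication, 19 to mitosis, and 4 are the S phase cyclins with their kinase. At day 2 of involution there were 4 Jak1 conditional knockout females and 3 wildtype controls. At day 7 of lactation there were 3 Jak1 conditional knockout females and 3 wildtype controls. Every library came from flash-frozen mammary gland, as total RNA, and ages, strain, the Cre line and the cells it acts in are not stated in the labels.

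Cells that divide make these transcripts in waves. Before S phase the MCM helicase is loaded onto origins with the help of Cdc6 and Cdt1, and Cdc45 and the GINS proteins turn it on. Pcna then clamps the polymerase to DNA while ribonucleotide reductase, thymidylate synthase and thymidine kinase supply nucleotides. Later, cyclin B with Cdk1, the Aurora and polo kinases and the spindle proteins drive mitosis, and Cdc20 and Ube2c start the destruction of cyclins that ends it. Most epithelial division in the mammary gland takes place in pregnancy, a lactating gland is largely made of secreting cells, and early involution is a phase of cell death and inflammation. In all 13 libraries the epithelial genes Krt8, Krt18 and Epcam and the milk protein gene Lalba were present, Lalba at 4808 to 24707 FPKM, whereas Csn1s1, Csn2 and Wap were listed at 0.

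Replication and mitotic genes carry different control elements in front of their starts. E2F sites are known from genes of the G1 to S transition, and the cell cycle homology region, CHR, together with CCAAT boxes is known from genes of G2 and mitosis. RefSeq promoter windows (GRCm38.p6, 250 bases before to 50 after the start) matched 31 of the 40 genes by symbol. These were searched on both strands for the CHR words TTTGAA and TTCGAA, for CCAAT, and for the E2F words TTTCCCGC, TTTGGCGC, TTTCGCGC and TTTGCCGC. The E2F words can overlap one another on opposite strands. A CHR word and a CCAAT box stood together in 12 of 15 mitotic promoters (80%), in 3 of 14 replication promoters (21.4%) and in 8.61% of 27025 genes with a window. An E2F word stood in 1 of 15 mitotic promoters, in 6 of 14 replication promoters (42.9%) and in 2.6% of the 27025 genes. A match is a description of the letters and not evidence of binding.

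**Figure D1:**
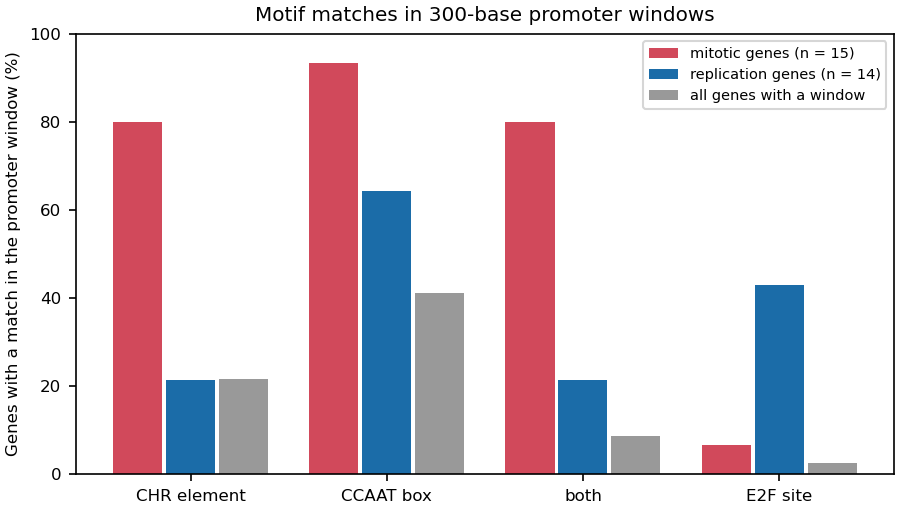
Share of genes, in percent, whose promoter window holds a CHR element, a CCAAT box, both, or an E2F word, for mitotic genes, replication genes and all genes with a window. Mitotic genes reach 80% for CHR with CCAAT, against 21.4% of replication genes, and for E2F mitotic genes reach 6.67%, against 42.9% of replication genes.

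The stretches below show this contrast in genes whose values are given in the text. All lie upstream of the start and are written 5′ to 3′ on the strand of the gene, with the matched words in capitals. The first set holds mitotic genes, in which CCAAT boxes (ATTGG on the other strand) stand near CHR words, except in Ccnb1. The Ccnb1 window holds CCAAT boxes and none of the CHR or E2F words searched, and other forms of these elements were not looked for. Cdk1 is the 1 mitotic promoter with an E2F word, TTTCGCGC, which opens the stretch shown.
Cdc20 (chr4:118437344-118437443, minus strand): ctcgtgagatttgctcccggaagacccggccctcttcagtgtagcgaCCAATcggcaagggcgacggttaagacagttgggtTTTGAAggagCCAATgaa
Cdk1 (chr10:69352913-69353052, minus strand): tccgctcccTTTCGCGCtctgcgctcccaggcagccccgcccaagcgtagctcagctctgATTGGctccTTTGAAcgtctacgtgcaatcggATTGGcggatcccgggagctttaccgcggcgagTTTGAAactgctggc
Top2a (chr11:99024290-99024389, minus strand): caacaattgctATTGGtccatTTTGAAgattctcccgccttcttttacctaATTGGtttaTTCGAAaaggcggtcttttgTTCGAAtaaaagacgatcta
Ccnb1 (chr13:100786507-100786606, minus strand): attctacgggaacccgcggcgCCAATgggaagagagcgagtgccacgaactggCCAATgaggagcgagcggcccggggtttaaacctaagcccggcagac
The second set holds genes of S phase, shown from their E2F words to the nearest CCAAT box. Further CCAAT boxes of the Mcm5 and Mcm6 windows lie outside the stretches.
Mcm5 (chr8:75109349-75109448, plus strand): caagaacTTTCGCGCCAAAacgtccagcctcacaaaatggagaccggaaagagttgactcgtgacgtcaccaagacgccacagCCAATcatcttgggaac
Mcm6 (chr1:128359726-128359825, minus strand): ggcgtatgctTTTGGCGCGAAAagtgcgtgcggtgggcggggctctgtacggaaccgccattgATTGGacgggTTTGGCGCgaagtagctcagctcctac
Cdk2 (chr10:128705092-128705201, minus strand): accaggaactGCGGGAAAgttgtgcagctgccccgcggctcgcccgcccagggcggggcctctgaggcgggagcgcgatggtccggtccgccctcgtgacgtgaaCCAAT

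At day 2 of involution most of the 40 genes stood higher in the Jak1 knockout glands, by amounts that did not pass the test over all genes. The difference between knockout and control, on the scale of log2(rescaled FPKM + 1), was positive for 38 of the 40 genes, with a median of 0.42, against 55.4% positive and a median of 0.02 over 19110 genes above 0 in at least 1 library. It was positive for 19 of 19 mitotic genes (median 0.50) and for 17 of 17 replication genes (median 0.35). The exceptions were Cdk2 and Ccne2. With limma and Benjamini-Hochberg adjustment over 12509 genes, 0 of the 35 members that passed the expression filter had an adjusted p under 0.05, and their adjusted p ran from 0.397 to 0.998. Over all genes 9 passed, a share of 0.0719%. Cdc6, Ccne2, Bub1, Cenpe and Kif11 were below the filter of 1 FPKM in 3 libraries.

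At an unadjusted p under 0.05 there were 11 members, each higher in the knockout: Mcm5, Cdt1, Tk1, Ccna2, Ccnb1, Cdk1, Plk1, Aurka, Aurkb, Cdc20 and Birc5. These were 11 of the 35 members tested, and of the 12509 genes that passed the filter 3.6% had such a p and a higher value in the knockout. With all 40 members fitted and no filter there were again 11, and the share over all genes was not taken for that fit. The count of 11 leaned on single libraries. It was 6 without knockout M43196, 5 without knockout M44440, 2 without control M44448 and 7 without control M43768, while the number of positive differences stayed between 37 and 39 of 40. The medians moved too. That over all members, 0.42, was 0.29 without knockout M43196, 0.32 without control M44448 and 0.50 without control M43914. That of the mitotic genes, 0.50, was 0.32 without knockout M43196 and also 0.32 without control M44448. All knockout libraries lay above all controls in rescaled FPKM for 8 members, Mcm5, Cdt1, Ccna2, Aurka, Aurkb, Cdc20, Kif20a and Tpx2, against a share of 2.87% over all genes. That count was 16 without knockout M43767, 18 without knockout M44176 and 23 without control M43914, but leaving out a library loosens this rule. Under quantile normalization the counts of 11 and 8 were 2 and 3, and scaling to the total outside milk protein genes and short RNAs gave 16 members without overlap. The shares over all genes were not taken for these alternatives or for the fits with a library left out. In bulk tissue, more dividing cells and more RNA per dividing cell cannot be told apart.

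**Figure D2:**
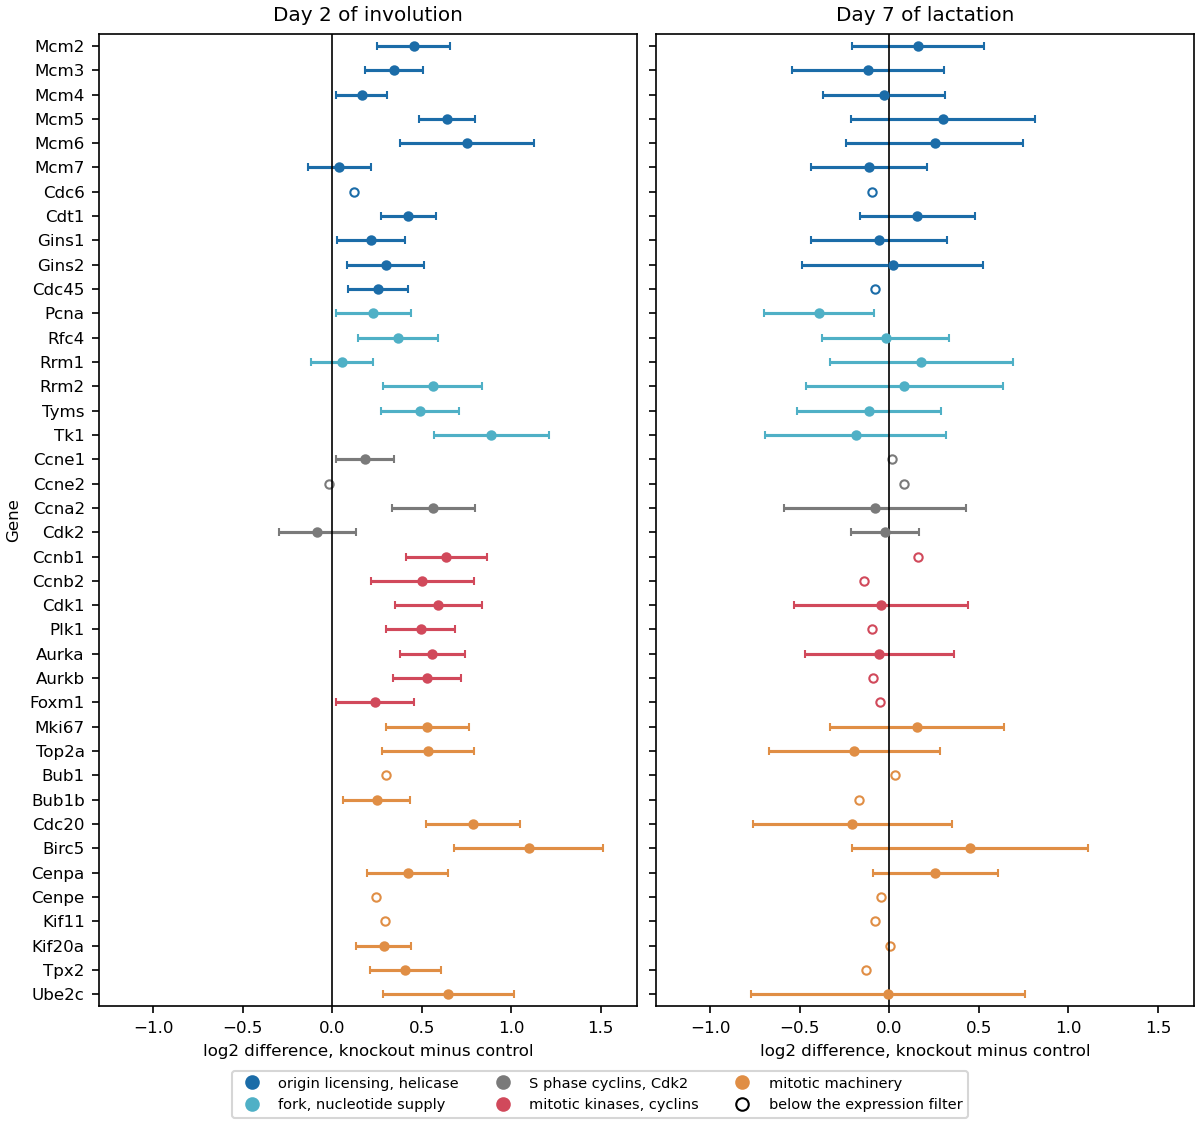
Knockout minus control difference in log2(rescaled FPKM + 1) for each of the 40 genes at day 2 of involution and day 7 of lactation, with bars of 1 standard error and open points for genes below the expression filter. At involution 38 of 40 points lie right of 0, and at lactation 15 of 40 do.

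At day 7 of lactation no such direction was seen. The difference was positive for 15 members and negative for 25, with a median of -0.05, against 52.6% positive and a median of 0.01 over all genes. None of the 25 members tested with limma passed the adjusted threshold, with adjusted p from 0.998 to 0.999, and 0 had an unadjusted p under 0.05. Over all 9560 genes tested, 1 passed (0.0105%) and 1.78% were higher in the knockout at an unadjusted p under 0.05. No member had all knockout libraries above all controls, a state that 4.1% of all genes reached. The libraries of both groups were spread widely. Ranked by rescaled FPKM, knockout M44174 was among the highest 2 libraries for 37 of 40 members, and control M42186 was the highest for 36. Control M44175 was the lowest for 24. The count of 15 positive members therefore moved with each library: it was 6 without knockout M44174, 30 without knockout M42734, 26 without knockout M43767, 38 without control M42186, 9 without control M43768 and 2 without control M44175. The median moved with it, to 0.34 without control M42186 (0.38 over the mitotic genes) and to -0.29 without knockout M44174. Total scaling gave 22 positive members of 40.

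**Figure D3:**
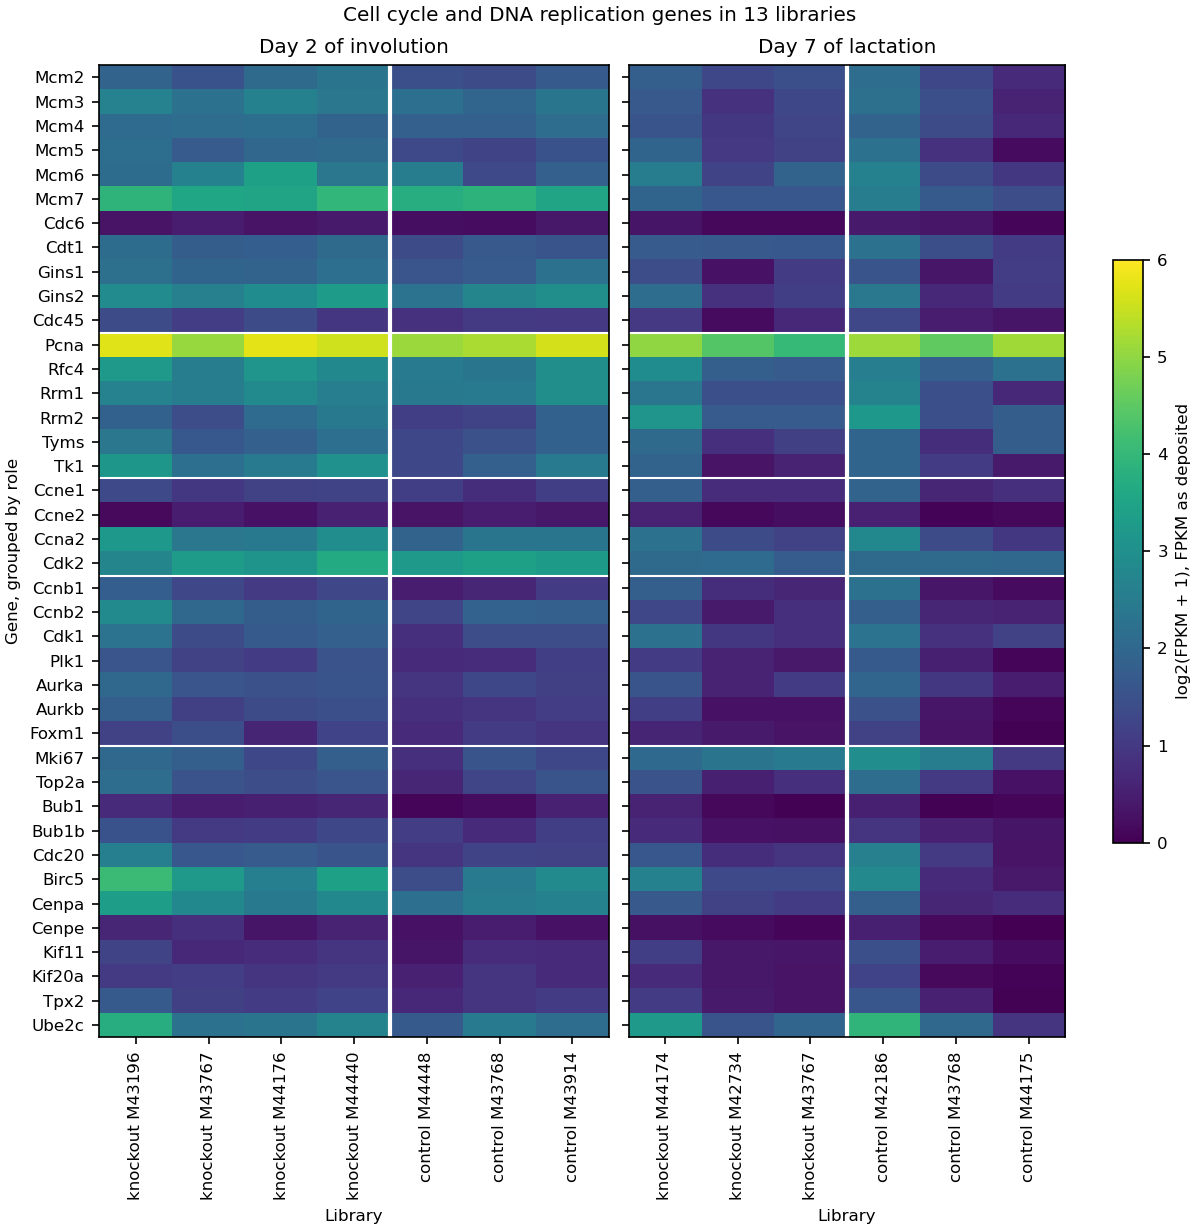
FPKM as deposited, as log2(FPKM + 1), for the 40 genes (rows, grouped by role) in the 13 libraries (columns, knockout left of control at each stage). Ranked by rescaled FPKM, control M44448 is the lowest library for 24 genes at involution, and at lactation knockout M44174 and control M42186 form bright columns.

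The library facts that touch these values are as follows. The Jak1 gene itself had 23.0, 22.2, 26.3 and 17.3 FPKM in knockout glands at involution, against 24.0 to 24.6 FPKM in controls, and 9.51 to 11.2 FPKM in knockout glands at lactation, against 6.18 to 14.2 FPKM in controls. The groups overlap, and since the deleted part of the gene is not given, this level of the whole gene does not check the labels. Relative depth within a table, read from the steps of the low values, ran from 0.485 to 1.5 at involution and from 0.723 to 1.29 at lactation, with knockout M43196 the shallowest. In that library a single short RNA entry, Mir6236, took 44.0% of all FPKM, against 32.7% in control M44448 at involution and 29.1% in control M44175 at lactation, the next highest shares. The numbers M43767 and M43768 each stand at both stages, and whether they name the same animals is not stated. Below, involution values are given for knockouts M43196, M43767, M44176 and M44440 and controls M44448, M43768 and M43914, in that order, and lactation values for knockouts M44174, M42734 and M43767 and controls M42186, M43768 and M44175. FPKM are as deposited, and because each stage has its own table levels were not tested between stages.

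Among the genes of origin licensing and the replicative helicase, Mcm5, a subunit of the MCM ring, had the smallest p of all members. At involution it had 3.48, 2.31, 2.96 and 3.22 FPKM in knockout glands, against 1.52, 1.36 and 1.86 FPKM in control glands. Every knockout library lay above every control, with means of 2.99 ± 0.50 FPKM in knockouts and 1.58 ± 0.25 FPKM in controls (SD, n = 4 and n = 3). The log2 difference was 0.64 ± 0.16 (SE), with an adjusted p of 0.397 (limma). At lactation Mcm5 had 2.84, 1.01 and 1.27 FPKM in knockouts, against 3.71, 0.817 and 0.121 FPKM in controls, where the control glands alone span more than the whole range of the knockouts.

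Cdt1, which loads MCM onto origins, had 3.32, 2.41, 2.48 and 3.24 FPKM in knockout glands at involution, against 1.57, 2.21 and 1.95 FPKM in control glands. The groups did not overlap, and the log2 difference was 0.43 ± 0.15 (SE; adjusted p = 0.638, limma). Cdc6, its partner in loading, reached at most 0.387 FPKM in any library of either stage and was not tested. Mcm2, another ring subunit, had 2.76, 1.86, 3.23 and 3.93 FPKM in knockouts, against 1.76, 1.59 and 2.26 FPKM in controls. Knockout M43767 lay below control M43914, and the difference was 0.46 ± 0.20 (adjusted p = 0.744). At lactation Mcm2 had 2.52, 1.48 and 1.75 FPKM in knockouts, against 3.44, 1.46 and 0.657 FPKM in controls, and the groups overlapped.

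The 6 MCM subunits form 1 ring, yet their levels did not keep to 1 ratio. Mcm7 had 14, 10.6, 10.3 and 14.7 FPKM in knockout glands at involution, against 12.4, 13.7 and 10.4 FPKM in control glands. The groups interleaved, and its difference of 0.04 ± 0.18 (adjusted p = 0.998) was the nearest to 0 of the ring. Mcm7 stood at 2.94 to 4.17 times the median of Mcm2 to Mcm6 in knockouts and at 4.05 to 8.61 times in controls at involution. At lactation the same ratio was 1.13 to 2.07 in knockouts and 1.33 to 2.88 in controls. Mcm7 shares exon positions with Ap4m1 and Cops6 on the other strand, and with Mir25 and Mir93 on its own, so its FPKM may hold reads of these genes. Ap4m1 had 8.07 to 10.8 FPKM in knockouts and 9.78 to 12.8 FPKM in controls at involution, and 1.86 to 2.22 FPKM in knockouts and 2.12 to 2.48 FPKM in controls at lactation.

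Mcm6 had the largest difference of the ring, 0.75 ± 0.37 (adjusted p = 0.816), from 3.36, 5.18, 9.63 and 4.22 FPKM in knockouts and 4.83, 1.51 and 2.57 FPKM in controls. Here knockout M44176 stood far above the other libraries and control M44448 lay above 2 of the 4 knockouts. Mcm3 (0.35 ± 0.16) and Mcm4 (0.16 ± 0.14) had smaller differences, with overlapping groups. The GINS subunits Gins1 (0.22 ± 0.19) and Gins2 (0.30 ± 0.21) and their partner Cdc45 (0.26 ± 0.17), which join MCM in the active helicase, overlapped between groups too.

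At the replication fork, Pcna, the sliding clamp that holds the polymerase, was the most abundant member in every library. It had 50.8, 32.6, 52.7 and 46.5 FPKM in knockout glands at involution, against 33, 36.8 and 48.1 FPKM in control glands. Knockout M43767 was the lowest of the 7 libraries, and the difference was 0.23 ± 0.21 (adjusted p = 0.963, limma). At lactation Pcna had 31.1, 20.1 and 15.2 FPKM in knockouts, against 33.9, 22.2 and 34.1 FPKM in controls, a difference of -0.39 ± 0.31 with overlapping groups. Control M44175, the lowest library for 24 members, was level with control M42186 for Pcna. Its FPKM was 11.9 to 18.4 times that of Mcm2 in knockouts and 18.7 to 23.2 times in controls at involution. Pcna has 2 named pseudogenes in the annotation, so reads may be shared with them.

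Tk1, thymidine kinase, which salvages thymidine in S phase, had 8.03, 3.59, 4.57 and 7.25 FPKM in knockout glands at involution, against 1.46, 2.55 and 4.45 FPKM in control glands. Only knockout M43767 lay within the control range, and the difference was 0.89 ± 0.32 (adjusted p = 0.637), with a 2.08-fold ratio of mean FPKM. Tyms, which makes thymidylate, had 4.18, 2.13, 2.58 and 3.6 FPKM in knockouts, against 1.45, 1.79 and 2.62 FPKM in controls. Knockouts M43767 and M44176 lay within the control range, and the difference was 0.49 ± 0.22 (adjusted p = 0.744). The subunits of ribonucleotide reductase, the enzyme that makes deoxynucleotides, differed from each other in size of difference. Rrm1 had 5.30, 4.71, 6.29 and 4.94 FPKM in knockouts, against 4.40, 4.43 and 6.87 FPKM in controls (0.06 ± 0.17, adjusted p = 0.998), whereas the difference for Rrm2 was 0.56 ± 0.28 (adjusted p = 0.814). Control M43914 had the highest Rrm1 of the 7 libraries. Rfc4, a subunit of the clamp loader, had a difference of 0.37 ± 0.22 with overlapping groups.

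Of the S phase cyclins, Ccna2, cyclin A, had 8.18, 4.22, 4.35 and 6.69 FPKM in knockout glands at involution, against 2.78, 4.07 and 4.00 FPKM in control glands. The groups did not overlap, though the lowest knockout and the highest control were close, and the difference was 0.56 ± 0.23 (adjusted p = 0.701, limma). Ccne1, cyclin E, which opens S phase, had 1.49, 0.956, 1.28 and 1.36 FPKM in knockouts, against 1.16, 0.733 and 1.17 FPKM in controls. Its groups overlapped through knockout M43767, with a difference of 0.18 ± 0.16 (adjusted p = 0.963). At lactation Ccne1 had 2.5, 0.708 and 0.689 FPKM in knockouts, against 2.76, 0.572 and 0.742 FPKM in controls: 1 library of each group was high and the other two of each were close together. Ccne2, the second cyclin E, reached at most 0.518 FPKM in any of the 13 libraries.

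Cdk2, the kinase bound by cyclins E and A, had 5.67, 8.96, 7.62 and 11.6 FPKM in knockout glands at involution, against 8.39, 9.71 and 8.72 FPKM in control glands. The knockouts lay on both sides of the controls, and the difference was -0.08 ± 0.22 (adjusted p = 0.998). Knockout M43196, the highest library for 24 of the 40 members, was the lowest for Cdk2, and without it the difference was 0.07. At lactation Cdk2 had 3.23, 3.26 and 2.35 FPKM in knockouts, against 3.20, 3.19 and 3.00 FPKM in controls, so its 3 controls lay close together.

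Among the mitotic kinases, Aurka, Aurora A of the spindle poles, had 3.08, 1.98, 1.80 and 1.96 FPKM in knockout glands at involution, against 0.900, 1.45 and 1.21 FPKM in control glands. No control reached the lowest knockout, and the difference was 0.56 ± 0.18 (adjusted p = 0.576, limma). Aurkb, Aurora B of the chromosomal passenger complex, had 2.54, 1.18, 1.60 and 1.75 FPKM in knockouts, against 0.761, 0.855 and 1.12 FPKM in controls. These groups did not overlap either, and the difference was 0.53 ± 0.19 (adjusted p = 0.635).

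Ccnb1, cyclin B, which with Cdk1 starts mitosis, had 2.47, 1.44, 1.03 and 1.43 FPKM in knockout glands at involution, against 0.391, 0.558 and 1.07 FPKM in control glands. Knockout M44176 lay just below control M43914, and the difference was 0.64 ± 0.23 (adjusted p = 0.626), with a 2.37-fold ratio of mean FPKM. At lactation Ccnb1 had 2.53, 0.723 and 0.571 FPKM in knockouts, against 3.77, 0.296 and 0.123 FPKM in controls, and was below the filter. Cdk1, its kinase, had 3.87, 1.62, 2.25 and 2.57 FPKM in knockouts at involution, against 0.789, 1.69 and 1.68 FPKM in controls. Knockout M43767 fell among the controls, and the difference was 0.59 ± 0.24 (adjusted p = 0.705). At lactation Cdk1 had 3.80, 0.970 and 0.787 FPKM in knockouts, against 3.84, 0.801 and 1.27 FPKM in controls, with 1 high library in each group.

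Plk1, the polo kinase, had a difference of 0.49 ± 0.19 (adjusted p = 0.670) at involution and Ccnb2, the other cyclin B measured, one of 0.50 ± 0.29 (adjusted p = 0.899), both with overlapping groups. Foxm1, the transcription factor of G2 and mitotic genes, had the largest p of these 7 genes. It had 1.25, 1.71, 0.539 and 1.31 FPKM in knockout glands, against 0.641, 1.05 and 0.859 FPKM in control glands. Knockout M44176 was the lowest of the 7 libraries, and the difference was 0.24 ± 0.22 (adjusted p = 0.963).

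**Figure D4:**
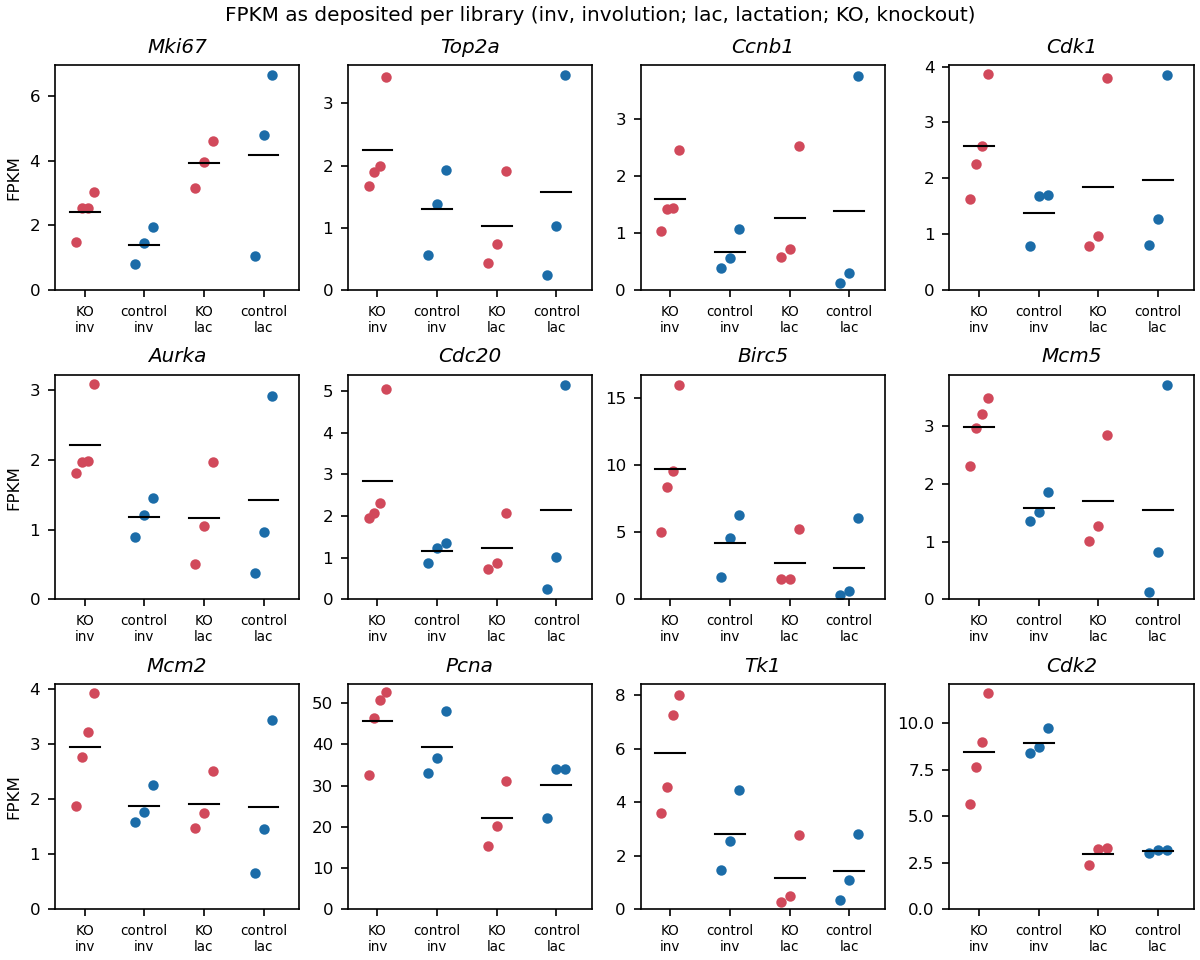
FPKM as deposited in each library for 12 of the genes, with a line at the group mean, knockout left of control at involution (inv) and lactation (lac). At involution Mcm5, Aurka and Cdc20 have knockout values above all controls, and at lactation 1 control is high for most genes.

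Within the mitotic machinery, Cdc20, the activator of the anaphase-promoting complex, had 5.05, 2.07, 2.33 and 1.94 FPKM in knockout glands at involution, against 0.884, 1.36 and 1.25 FPKM in control glands. All knockouts lay above all controls, knockout M43196 furthest, and the difference was 0.79 ± 0.26 (adjusted p = 0.599, limma). Birc5, survivin, a member of the passenger complex with Aurkb, had 16.0, 8.37, 5.04 and 9.57 FPKM in knockouts, against 1.65, 4.61 and 6.29 FPKM in controls. Knockout M44176 lay below control M43914, and the difference of 1.1 ± 0.42 (adjusted p = 0.657) was the largest of the 40, with means of 9.74 ± 4.58 FPKM in knockouts and 4.18 ± 2.35 FPKM in controls (SD, n = 4 and n = 3).

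Mki67, the proliferation antigen Ki-67 that coats mitotic chromosomes, had 3.05, 2.54, 1.47 and 2.55 FPKM in knockout glands at involution, against 0.791, 1.94 and 1.45 FPKM in control glands. Knockout M44176 lay among the controls and the other three above them, with a difference of 0.53 ± 0.23 (adjusted p = 0.732). At lactation Mki67 had 3.15, 3.97 and 4.62 FPKM in knockouts, against 6.66, 4.79 and 1.04 FPKM in controls, so the knockout values lay between the control extremes. Top2a, the topoisomerase that untangles sister chromatids, had 3.43, 1.89, 1.68 and 1.99 FPKM in knockouts at involution, against 0.570, 1.39 and 1.94 FPKM in controls. Its groups overlapped, and the difference was 0.53 ± 0.26 (adjusted p = 0.803). At lactation Top2a had 1.91, 0.438 and 0.738 FPKM in knockouts, against 3.45, 1.02 and 0.233 FPKM in controls, again with 1 high library in each group.

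These 2 common markers of division did not keep the same ratio across libraries. Mki67 stood at 0.877 to 1.34 times Top2a in knockouts and at 0.748 to 1.4 times in controls at involution. At lactation the ratio was 1.65, 9.07 and 6.26 in knockouts, against 1.93, 4.68 and 4.46 in controls. Its lowest values at lactation were those of knockout M44174 and control M42186, the libraries in which most members were highest. Read by Mki67, knockout M44174 was the lowest of the 3 knockouts at lactation, and read by Top2a it was the highest.

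The remaining genes of the machinery overlapped between the groups at involution apart from Kif20a, a kinesin of cytokinesis (0.29 ± 0.15, adjusted p = 0.873), and Tpx2, which activates Aurora A (0.41 ± 0.20, adjusted p = 0.803). Both were apart in rescaled FPKM by a small gap and overlapped in FPKM as deposited. Kif20a had 1.03, 1.12, 0.870 and 1.04 FPKM in knockouts, against 0.466, 0.884 and 0.669 FPKM in controls. Ube2c, the ubiquitin-conjugating enzyme of the anaphase-promoting complex, had a difference of 0.65 ± 0.37 and Cenpa, the histone of centromeres, one of 0.42 ± 0.23. Bub1b, a kinase-like protein of the spindle checkpoint, had the largest p of the tested genes in this group (0.25 ± 0.19, adjusted p = 0.940), with 1.86, 1.01, 1.1 and 1.47 FPKM in knockouts, against 1.14, 0.680 and 1.18 FPKM in controls. Its groups overlapped. The checkpoint kinase Bub1 and the kinesins Cenpe and Kif11 stood too low to be tested, at means of 0.506, 0.521 and 0.890 FPKM in knockouts and 0.236, 0.286 and 0.550 FPKM in controls.

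To set replication apart from mitosis, the log2(rescaled FPKM + 1) values were averaged over the genes of each set in each library. At involution the mean over the 19 mitotic genes was 2.02, 1.51, 1.35 and 1.60 in knockout glands, against 0.88, 1.22 and 1.28 in control glands. Every knockout lay above every control, by a difference of 0.49 ± 0.19 (SE). The mean over the 17 replication genes was 2.52, 2.20, 2.49 and 2.51 in knockouts, against 1.96, 1.95 and 2.27 in controls. Here knockout M43767 lay below control M43914, and the difference was 0.37 ± 0.13. The mitotic mean minus the replication mean averaged -0.81 ± 0.28 in knockouts and -0.93 ± 0.18 in controls (SD, n = 4 and n = 3). Its difference of 0.12 ± 0.17 (SE) was smaller than its error. With 0.1 in place of 1 added before the log2, this difference was 0.30 ± 0.26 (SE), with overlapping groups. A larger shift of one set than of the other was not shown.

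Within the knockout group the sets ordered the libraries differently. Knockout M43196 was the highest library for 16 of 19 mitotic genes and for 6 of 17 replication genes. Its replication mean was level with those of M44176 and M44440, while its mitotic mean was the highest. Control M44448 was the lowest library for 16 of 19 mitotic genes and 7 of 17 replication genes.

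At lactation the mitotic mean was 1.43, 0.72 and 0.78 in knockouts, against 1.89, 0.73 and 0.34 in controls, and the replication mean was 2.09, 1.22 and 1.45 in knockouts, against 2.34, 1.33 and 1.11 in controls. Both sets put the same 2 libraries on top, knockout M44174 and control M42186, and control M44175 at the bottom. The differences between the groups were -0.01 ± 0.52 and -0.003 ± 0.46 (SE), far smaller than their errors. With Mcm2 to Mcm7, Pcna, Rrm1 and Rrm2 as a narrower replication set, the mitotic mean minus the replication mean differed by 0.13 ± 0.23 at involution and by -0.05 ± 0.05 at lactation.

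**Figure D5:**
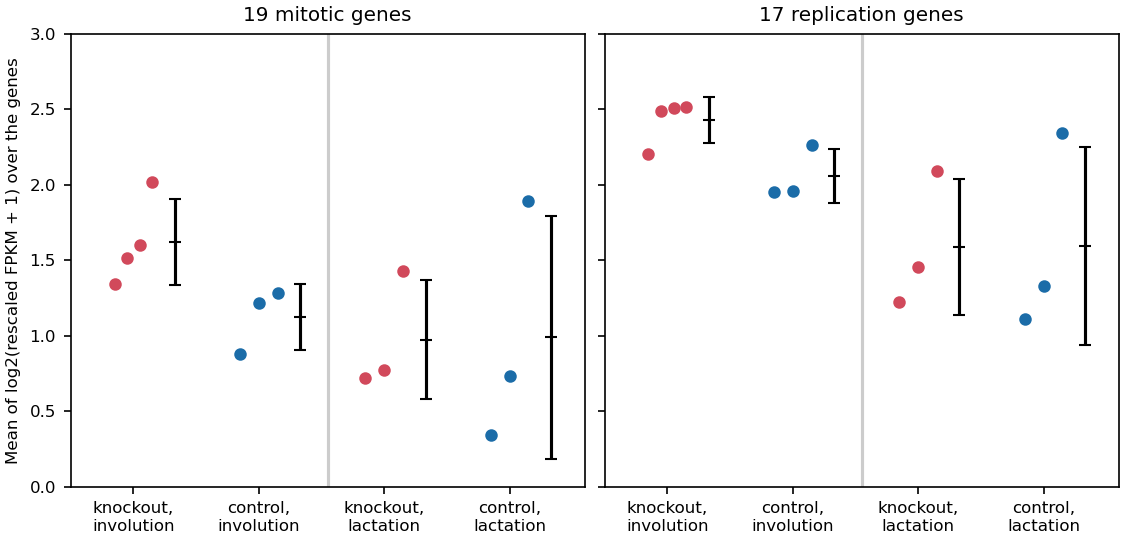
Mean of log2(rescaled FPKM + 1) over 19 mitotic genes and 17 replication genes in each library, with black bars for the group mean and SD, knockout left of control at each stage. At involution the mitotic means of the 4 knockouts, 1.35 to 2.02, lie above those of the 3 controls, 0.88 to 1.28, and at lactation the groups overlap in both sets.

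Whether the knockout effect differed between the stages was asked of 1 model holding all 13 libraries, with the lactation effect subtracted from the involution effect. None of the 36 members tested passed (adjusted p = 0.999 for each, limma), and 0 had an unadjusted p under 0.05, against 3.35% of all 12667 genes at that p and 0.0789% at the adjusted one. The contrast was positive for 34 of the 36 members, with a median of 0.44, against 51.1% positive and a median of 0.008 over all 12667 genes. Whether the members differ as a set was not tested. The largest such contrasts were those of Tk1 (1.08 ± 0.65) and Cdc20 (0.99 ± 0.66). This model took the 13 libraries as independent. With the mouse number as a block, an alternative chosen after seeing the data, again 0 of 36 members passed, with a smallest adjusted p of 0.595 (limma). Over all genes 20 passed in that fit. Of the members 1 had an unadjusted p under 0.05, and the share over all genes at that p was not taken for this fit. A direction seen at involution and not at lactation is therefore not shown to differ between the stages.

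Other genes of the same pathways, from lists that do not hold the members, were set beside them. These lists too were drawn up with earlier results of these data known. Of 37 further replication genes 32 were higher in knockouts at involution, and of 42 further mitotic genes 41 were, against 55.4% of all genes. None passed the adjusted test (limma), with 7 of 32 and 6 of 24 tested genes higher at an unadjusted p under 0.05, against 3.6% of all genes tested. From each list here and below the 2 genes with the smallest p are named, so groups lying apart follow in part from that choice. Over all genes above 0 in at least 1 library, 2.87% had all knockouts above all controls. Uhrf1, which maintains DNA methylation at the fork, had 2.06, 2.18, 2.01 and 2.77 FPKM in knockouts, against 0.418, 0.971 and 1.37 FPKM in controls. These groups lay apart, with a difference of 0.80 ± 0.20 (adjusted p = 0.412). The origin recognition subunit Orc6 (0.47 ± 0.16, adjusted p = 0.607), the mitotic entry factor Cdca3 (0.99 ± 0.30, adjusted p = 0.543) and the condensin subunit Ncaph (0.46 ± 0.15, adjusted p = 0.599) were apart between the groups as well.

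The regulators upstream did not share 1 direction. Of 18 genes of the E2F and RB families 11 were higher in knockouts at involution, and of 14 checkpoint genes 5 were, against 55.4% of all genes. Rb1, the retinoblastoma protein that holds E2F factors in check, had 29.3, 21.1, 19.8 and 21.5 FPKM in knockouts, against 30.2, 39.2 and 51.4 FPKM in controls. Its groups lay apart with the knockouts lower, at a difference of -0.75 ± 0.21 (adjusted p = 0.482), and E2f6, an E2F that represses, had one of 0.32 ± 0.20 (adjusted p = 0.920). Gadd45a, a stress gene of growth arrest, had a difference of -0.59 ± 0.16 (adjusted p = 0.474).

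A further list of 16 genes held the G1 cyclins, their kinases and CDK inhibitors, and also Ccnc, Cdk8, Cdk7 and Ccnh. Of these 16 genes 10 were higher in knockouts at involution, again against 55.4% of all genes. Ccnd1, cyclin D1, which links growth signals to the RB pathway, had 7.60, 9.91, 14.5 and 12.9 FPKM in knockout glands at involution, against 3.84, 2.95 and 3.31 FPKM in control glands. Its knockouts all lay well above the controls, and the difference of 1.48 ± 0.22 came nearer to the threshold than any member (adjusted p = 0.0898, limma). At lactation Ccnd1 had 15.3, 17 and 19.2 FPKM in knockouts, against 24.3, 15.6 and 7.60 FPKM in controls, with overlapping groups. Cdk8, which works within Mediator to tune transcription, had a listed value of 0 in the 4 knockouts at involution, against 9.06, 11.6 and 11.5 FPKM in controls, and passed the adjusted test (adjusted p = 1.32e-05). At lactation it stood at 4.42 to 5.85 FPKM in knockouts and 3.77 to 6.36 FPKM in controls, and a listed 0 may be an entry without an estimate.

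Markers of cell types differed in level between the groups at involution too, though none of those listed here passed the adjusted test (limma) at either stage. At this stage 55.4% of all genes were higher in knockouts. All 8 fibroblast markers were higher in knockouts, with summed levels of 336 to 847 FPKM, against 189 to 431 FPKM in controls. So were all 9 adipocyte markers, at 4633 to 16676 FPKM, against 4268 to 8434 FPKM, and 8 of 9 basal epithelial markers, at 477 to 559 FPKM, against 252 to 428 FPKM. Of 11 macrophage markers 8 were higher, yet their sum was 1069 to 1786 FPKM in knockouts, against 2066 to 2808 FPKM in controls. The sum of the 7 markers of B and plasma cells was 263 to 436 FPKM in knockouts, against 536 to 697 FPKM in controls, with 1 of 7 higher. Luminal markers (3 of 10 higher) summed to 1525 to 2605 FPKM in knockouts and 1640 to 2202 FPKM in controls. None of these markers was at 0 in all libraries of the stage. The summed levels of fibroblast, adipocyte and luminal markers overlapped between the groups. At lactation, where the members showed no shared direction, 9 of 9 adipocyte markers (median log2 difference 0.77), 7 of 8 fibroblast markers (0.71) and 8 of 8 endothelial markers (0.64) were higher in knockouts, against 52.6% of all genes. The part of these cell types in the members' values was not tested.

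Some of the libraries that stood apart for the division genes stood apart for some of these lists. Knockout M43196 had the highest sum of neutrophil markers at involution, 437 FPKM, against 35.4 to 67.9 FPKM in the other three knockouts and 56.0 to 235 FPKM in controls, and the highest sum of fibroblast and erythrocyte markers. Knockout M43767 had the highest sum of skin keratinocyte markers, 138 FPKM, against 1.82 to 3.46 FPKM in the other knockouts and 1.51 to 3.64 FPKM in controls. It also had the highest basal sum, 559 FPKM. Knockout M44176 had the highest sum of skeletal muscle markers, 4464 FPKM, against 4.28 to 584 FPKM in the other knockouts and 55.8 to 1154 FPKM in controls. At lactation control M42186 had the highest sum of basal markers, 332 FPKM, against 141 to 264 FPKM in knockouts and 141 and 143 FPKM in the other two controls. Knockout M44174, also high for the division genes at lactation, had the lowest basal sum of that stage, 140.7 FPKM. The part of cell type makeup in the differences of the 40 genes was not tested.

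Overlap with other genes limits some of these values, since the kit is not stated to keep strand. By the annotation (gencode vM21), 14 members share exon positions with another gene, 12 of them with a gene on the other strand, and 4 have a named pseudogene (Pcna, Tyms, Ccnb1 and Ccnb2). Cdc20 overlaps Elovl1, which had 34.7 to 45.4 FPKM in knockouts and 38.3 to 42.3 FPKM in controls at involution. Tk1 overlaps Afmid, at 1.37 to 2.42 FPKM in knockouts and 1.78 to 3.07 FPKM in controls. Ccna2 overlaps Exosc9, at 11.7 to 14 FPKM in knockouts and 9.66 to 11.5 FPKM in controls. Rfc4 overlaps Eif4a2, at 100 to 133 FPKM in knockouts and 92.1 to 127 FPKM in controls. Ube2c overlaps Tnnc2, at 0.629 to 1134 FPKM in knockouts and 17.3 to 350 FPKM in controls. Of these partners, Exosc9 was the one whose knockout values all lay above the controls.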

How the data were processed

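Total RNA of flash-frozen mammary glands was turned into TruSeq libraries and read on an Illumina HiSeq, per the labels' protocols. The authors deposited 1 table of FPKM (fragments per length and library size) for each stage. Per the submitters' processing notes they used CASAVA, cutadapt and TopHat with build mm9. Versions, and how FPKM were made and scaled, are not given in those notes, and sequencing depth is known only relative to the other libraries of a table.

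Groups came from the library titles. Libraries of a table were brought to 1 scale with median-of-ratios factors and taken as log2(value + 1), so differences of low genes are understated. Genes reaching 1 FPKM in 3 or more libraries were tested with limma 3.58.1 (lmFit, eBayes with trend) in R 4.3.3, two-sided. Adjustment was by Benjamini-Hochberg over all genes tested, at a threshold of 0.05. Counts and medians over all members use values without the filter. The steps were tested on simulated data. For limma these had the group sizes of involution, left out low genes and held larger changes than most members had. How often the fit would find changes like those of the members was therefore not tested. The labels do not say how the mice relate, so p-values measure the spread between these libraries. Exact zeros entered as 0.

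The members and the other gene lists were chosen with earlier results of these data known. Values in every library are given for Mki67, Top2a, Pcna, Mcm2, Ccnb1, Cdk1 and Ccne1, and in each role group for the 2 members with the smallest p at involution and the one with the largest. Mcm6, Aurkb and Kif20a were added after their values were seen, as were lactation values of Mcm5 and Cdk2. From each other list the 2 genes with the smallest p are named, and Ccnd1. One gene that this rule names is not reported here. Sequences are RefSeq's, on GRCm38.p6. They were matched by symbol, and no coordinate was converted between builds. The stretches printed were chosen after the motif search.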

Additional observations from a re-analysis of the deposited data

Results flagged for a closer look

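In the 4 knockout libraries at involution, 4 of 42 values examined had 1 library far from the other three, measured as the gap to the nearest library divided by the range, above Dixon's critical value for 4 samples. Chance gives such a flag in about 1 in 20 groups. Knockout M43196 was the far, highest library for Ccnb2 (0.856; 6.31 FPKM, with the others at 2.42 to 2.98 FPKM), for Aurka (0.862; 3.08 FPKM, with the others at 1.80 to 1.98 FPKM) and for Cdc20 (0.877; 5.05 FPKM, with the others at 1.94 to 2.33 FPKM). Knockout M43767 was the far, lowest library for the mean over the 17 replication genes (0.912; 2.20, with the others at 2.49 to 2.52).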

How the results depend on the processing

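No member passed the adjusted threshold at either stage, or for the difference between stages, under any alternative run: a pseudocount of 0.1, no filter, FPKM as deposited, quantile normalization, scaling to the total outside milk proteins and short RNA, array weights, and leaving out each library. At involution the 11 members with an unadjusted p under 0.05 were 2 under quantile normalization and 2 to 15 with 1 library left out. The 8 members without overlap were 3 under quantile normalization, 16 under total scaling and 9 to 23 with 1 library left out. Leaving out a library loosens that rule, and shares over all genes were not taken for these alternatives. With a pseudocount of 0.1 the median was 0.66 over all members, 0.80 over the mitotic genes and 0.44 over the replication genes. The mitotic mean minus the replication mean then differed between the groups by 0.30 ± 0.26 (SE). At lactation the 15 positive members were 24 with a pseudocount of 0.1 and 2 to 38 with 1 library left out. Leaving out 1 library there gave 0 to 3 members with an unadjusted p under 0.05 and 0 to 12 without overlap, again with no share over all genes taken. The cause of these shifts was not tested. Small differences changed sign: at lactation Mki67 (-0.16 with array weights, -0.44 to 0.57 with 1 library left out), Top2a (-0.63 to 0.32), Mcm2 (-0.19 to 0.57) and Cdk1 (0.036 under total scaling, 0.093 with array weights, -0.50 to 0.41), and at involution Mcm7 (-0.063 with array weights, -0.071 to 0.12), Rrm1 (-0.034 to 0.22) and Cdk2 (-0.23 to 0.074). Refits in which such a gene missed the filter enter by its difference of means. No paired analysis was possible because the groups compared within a stage share no mouse number. Across stages, with the mouse number as a block of estimated correlation (0.697, chosen after seeing the data), 0 members had an adjusted p under 0.05, as without the block. Over all genes 20 had such an adjusted p with the block. A fixed block leaves no residual degrees of freedom. Depth is relative only, so no counting interval is given.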
